A study of Drosophila melanogaster with 6 samples.

Results

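Nuclear glutamate tRNAs were measured by hydro-tRNAseq in larval *Drosophila melanogaster* brains biased toward neuroblasts or toward neurons. All rows of the authors' table with a nuclear origin and a name starting with Glu were taken, which gave 4 isodecoders among the 84 nuclear isodecoders and 106 tRNAs listed. An isodecoder is 1 mature tRNA sequence among those with a given anticodon. Of the glutamate isodecoders, 3 carry the anticodon CTC (Glu-CTC-1-1, Glu-CTC-2-X and Glu-CTC-3-X) and 1 carries TTC (Glu-TTC-1-X). Names are written with T for U, as in the table, and an X stands for several genes with the same mature sequence.

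The neuroblast-biased samples (n = 3) were brains of the genotype insc-Gal4>UAS-aPKC_caax, in which a neuroblast driver expresses a membrane-targeted form of the atypical protein kinase C and ectopic neuroblasts accumulate. The neuron-biased samples (n = 3) were wild-type Oregon R brains. Both sets of larvae were at the L3 stage and were grown at 25 °C according to the sample records. Whole brains were used, so wild-type brains also held neuroblasts and glia, and no control with the driver or the transgene alone is named. The table holds tRNAs only, so no marker gene was available to check the cell type labels.

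The table gives 1 mean TMM per tRNA and group, a read count normalized by the trimmed mean of M-values and averaged over replicates by the authors. Replicate values and library depths were not analysed here, and the authors' own test results in the table were not used. The differences below are therefore given without a replicate error and without a test. The comparison of both brain types asks how the glutamate tRNA supply differs between proliferating progenitors and differentiated cells. In these bulk samples, fewer cells of a type and less RNA per cell cannot be told apart. The summed mean TMM of the nuclear isodecoders was 13449691 in neuroblast-biased brains and 16544453 in neuron-biased brains. The median log2 ratio of the nuclear isodecoders was −0.27, and each log2 ratio is therefore also given relative to this median.

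As background, glutamate is encoded by the codons GAA and GAG. The TTC anticodon pairs with GAA and can also read GAG through a U:G wobble pair, whereas CTC reads GAG only. In eukaryotes, the first anticodon base of the TTC isoacceptor carries a modified uridine, whose side chain is made by way of the Elongator complex and which is thiolated by a separate pathway. In animals, the glutamate tRNAs are charged by a synthetase that is fused to the prolyl-tRNA synthetase.

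By name, the 4 isodecoders corresponded to 19 genes annotated by RefSeq on the Release 6 genome assembly, of which 13 were CTC and 6 were TTC genes. Each gene was 72 bp long, so the levels of glutamate isodecoders refer to equal lengths. Glu-CTC-1-1 had 1 gene, Glu-CTC-2-X had 3, Glu-CTC-3-X had 9 and Glu-TTC-1-X had 6. Another 2 Glu-CTC loci were annotated as pseudogenes and had no row in the table. The genes were found on chromosome arms 2R (9 genes) and 3L (10 genes), and they formed 3 clusters and 2 isolated genes when genes up to 50 kb apart were joined.

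The only Glu-CTC-1-1 gene was located at 2R:16219638-16219709. It was flanked by a pair of Glu-TTC-1 genes, at 2R:16219374-16219445 and 2R:16220052-16220123, which were 192 bp and 342 bp away. All genes of this cluster fell within 750 bp and within the span of *mrj*, which encodes a DnaJ-type chaperone. The second cluster, at 2R:19726142-19728958, held 3 Glu-TTC-1 genes followed by 2 Glu-CTC-2 genes and lay within no other gene. The smallest gap between genes of different anticodons was 135 bp, between Glu-TTC-1-6 and Glu-CTC-2-1. The anticodons were thus mixed in both clusters on 2R.

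The third cluster, at 3L:1379934-1401852, held all 9 Glu-CTC-3 genes and no TTC gene. Its genes were within the span of *Ptp61F*, which encodes a protein tyrosine phosphatase. The first 3 also lay within the span of *roughoid* (*ru*), which encodes a rhomboid protease, and Glu-CTC-3-8 also lay within that of *CG32320*. The isolated genes were Glu-TTC-1-3 at 2R:19564873-19564944, within the span of *smooth* (*sm*), an hnRNP L-type RNA-binding protein gene, and Glu-CTC-2-3 at 3L:22847725-22847796, in no other gene. RefSeq lists Glu-CTC-4-1 as an older name of Glu-CTC-2-3. It was counted here by its current name, and whether the authors' Glu-CTC-2-X includes it was not determined. The annotation gave spans without strand or exons, so a position in an exon, intron or UTR was not assigned.

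**Figure D1:**
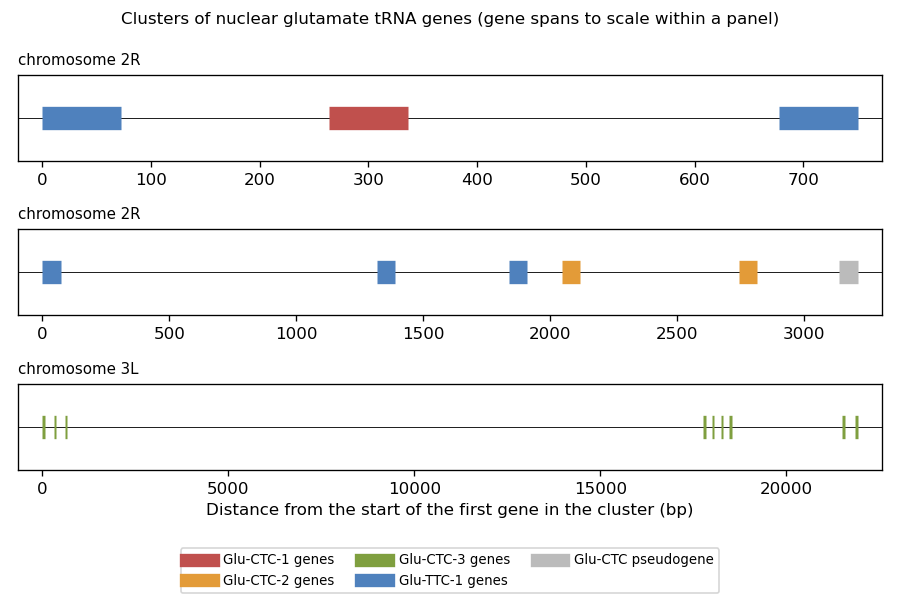
Positions of the nuclear glutamate tRNA genes in the 3 clusters, as distance in bp from the start of the first gene of each cluster, with colors for the isodecoder. The Glu-CTC-1 gene lies between Glu-TTC-1 genes in the 750 bp cluster (top), Glu-TTC-1 and Glu-CTC-2 genes share the second cluster, and the third holds 9 Glu-CTC-3 genes only.

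All 4 glutamate isodecoders had a lower mean TMM in neuroblast-biased brains. For comparison, 67.9% of the nuclear isodecoders were lower by any amount. The log2 ratio was at or below −0.5 for 2 of the 4, Glu-CTC-1-1 and Glu-CTC-3-X, against 33.3% of the nuclear isodecoders (28 of 84), while 8.33% (7 of 84) were higher by at least 0.5. Relative to the nuclear median, 1 of the 4, Glu-CTC-1-1, was lower by at least 0.5, against 14.3% of the nuclear isodecoders (12 of 84), while 20.2% (17 of 84) were higher by as much. The counts of lower members were small and were not tested against these shares.

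Glu-CTC-1-1, the single-gene GAG reader, had a mean of 111590 TMM in neuroblast-biased brains and 242531 TMM in neuron-biased brains. The neuroblast value was 46.0% of the neuron value, a log2 ratio of −1.12 and of −0.85 relative to the nuclear median. This was the fifth lowest log2 ratio of the 84 nuclear isodecoders.

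Glu-CTC-3-X, the isodecoder of the 9 genes on 3L, had 120202 TMM in neuroblast-biased brains and 202070 TMM in neuron-biased brains. Its log2 ratio was −0.75, or −0.48 relative to the nuclear median, and ranked 14 from the lowest. Glu-CTC-2-X had 218255 TMM in neuroblast-biased brains and 300427 TMM in neuron-biased brains. Its log2 ratio of −0.46 ranked 30 and was −0.19 relative to the nuclear median.

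Glu-TTC-1-X, which reads both glutamate codons, had 302209 TMM in neuroblast-biased brains and 398489 TMM in neuron-biased brains. Its log2 ratio was −0.40, or −0.13 relative to the nuclear median, with rank 34. Of the glutamate isodecoders, it had the log2 ratio closest to 0. The mitochondrial Glu-TTC, which is encoded in the mitochondrial genome and serves translation there, was higher in neuroblast-biased brains, at 6115 TMM against 2879 TMM in neuron-biased brains (log2 ratio 1.09).

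**Figure D2:**
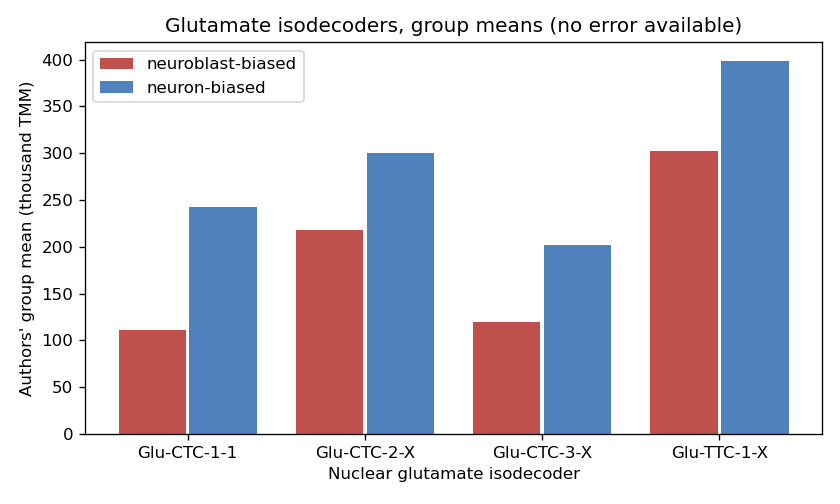
Authors' mean TMM of each nuclear glutamate isodecoder in neuroblast-biased (left bars) and neuron-biased (right bars) brains, each bar the mean of 3 samples without an error. All neuroblast bars are lower, and Glu-CTC-1-1 has 111590 TMM in neuroblast-biased brains and 242531 TMM in neuron-biased brains.

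**Figure D3:**
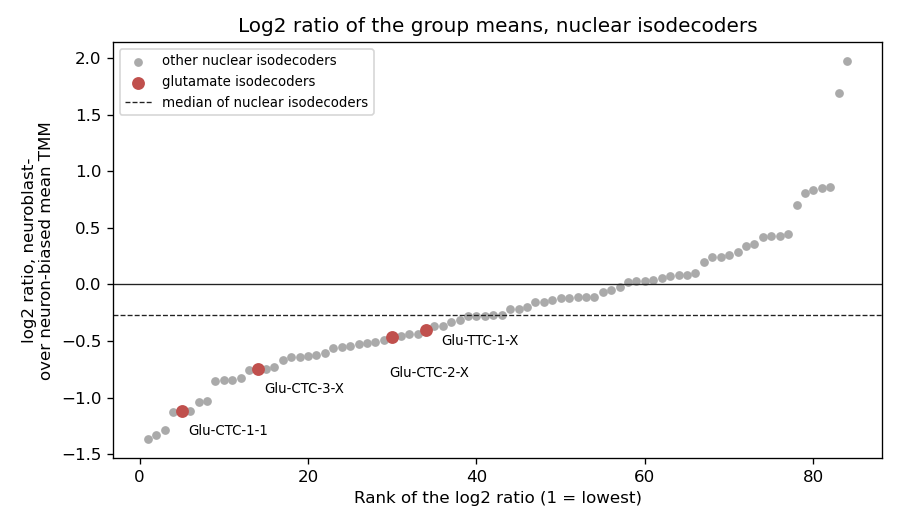
Log2 ratio of neuroblast-biased over neuron-biased mean TMM for the 84 nuclear isodecoders, in rank order, with the glutamate isodecoders in red and the nuclear median as a dashed line. The glutamate isodecoders take ranks 5, 14, 30 and 34, all below the median of −0.27.

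The order of the glutamate isodecoders by level was the same at the top in both groups, with Glu-TTC-1-X first and Glu-CTC-2-X second. The order of the other two differed. In neuroblast-biased brains the mean of Glu-CTC-1-1 was 0.928 times that of Glu-CTC-3-X, whereas in neuron-biased brains it was 1.20 times that of Glu-CTC-3-X. Whether neighbours in this order differ beyond replicate spread was not tested. Glu-CTC-2-X exceeded Glu-CTC-1-1 by a factor of 1.96 in neuroblast-biased brains and 1.24 in neuron-biased brains.

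The make-up of the CTC group shifted accordingly. Glu-CTC-2-X took 48.5% of the Glu-CTC sum in neuroblast-biased brains and 40.3% in neuron-biased brains. Glu-CTC-3-X held nearly the same share, 26.7% in neuroblast-biased brains and 27.1% in neuron-biased brains. The log2 ratios of the CTC isodecoders spanned 0.66. Among the 9 anticodon groups with at least 3 isodecoders, this was the third smallest span, with a median of 1.04. The groups differed in level and in number of isodecoders, so their spans are not like for like. The widest span, in Arg-TCT, had its upper end at Arg-TCT-3-1, with 6984 TMM in neuroblast-biased brains and 1780 TMM in neuron-biased brains. Every Glu-CTC isodecoder was above these levels. In 3 of the 9 groups, Glu-CTC, Asp-GTC and Pro-CGG, all isodecoders were lower in neuroblast-biased brains.

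The number of genes did not order the levels within the glutamate family. Per gene, Glu-CTC-1-1 had 111590 TMM in neuroblast-biased brains and 242531 TMM in neuron-biased brains, whereas Glu-CTC-3-X had 13356 TMM per gene in neuroblast-biased brains and 22452 TMM in neuron-biased brains. The ratio of both was 8.36 in neuroblast-biased brains and 10.8 in neuron-biased brains. Glu-CTC-2-X had 72752 TMM per gene in neuroblast-biased brains and 100142 TMM in neuron-biased brains, and Glu-TTC-1-X had 50368 TMM per gene in neuroblast-biased brains and 66415 TMM in neuron-biased brains. If the gene once named Glu-CTC-4-1 does not belong to it, Glu-CTC-2-X has 2 genes and 109128 TMM per gene in neuroblast-biased brains, close to Glu-CTC-1-1, and 150214 TMM in neuron-biased brains. Glu-CTC-1-1 accounted for 5.26% of the glutamate genes but for 14.8% of the glutamate TMM in neuroblast-biased brains and 21.2% in neuron-biased brains. Glu-CTC-3-X accounted for 47.4% of the genes and for 16.0% of the TMM in neuroblast-biased brains and 17.7% in neuron-biased brains.

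Among the 38 nuclear isodecoders with 1 gene, the mean TMM per base of gene length of Glu-CTC-1-1 ranked 4 in neuroblast-biased brains and 1 in neuron-biased brains. The ranks by TMM alone were the same. The median of these isodecoders was 20987 TMM in neuroblast-biased brains and 32895 TMM in neuron-biased brains. Reads that mapped to more than 1 reference were split between the references, so values of glutamate isodecoders with similar sequences carry that uncertainty. How many reads were shared was not analysed here.

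The glutamate pool as a whole summed to 752256 TMM in neuroblast-biased brains and 1143517 TMM in neuron-biased brains, a log2 ratio of −0.60 and of −0.34 relative to the nuclear median. It made up 5.59% of the nuclear TMM in neuroblast-biased brains and 6.91% in neuron-biased brains. Among the 22 tRNA families by amino acid, with initiator methionine and selenocysteine counted apart, glutamate had the eighth largest sum in neuroblast-biased brains and the fifth largest in neuron-biased brains. Its log2 ratio was the sixth lowest, after those of Tyr, Pro, Trp, Gly and Leu. Of the difference in the glutamate sum between the groups, Glu-CTC-1-1 contributed 33.5%, Glu-TTC-1-X 24.6%, Glu-CTC-2-X 21.0% and Glu-CTC-3-X 20.9%. These shares depend on the scaling. With the nuclear median set to 0, they were 45.4% for Glu-CTC-1-1, 14.6% for Glu-TTC-1-X, 15.9% for Glu-CTC-2-X and 24.1% for Glu-CTC-3-X.

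The balance of the pool was lower in CTC in neuroblast-biased brains. The Glu-CTC sum was 450047 TMM in neuroblast-biased brains and 745028 TMM in neuron-biased brains (log2 ratio −0.73, or −0.46 relative to the nuclear median). CTC made up 59.8% of glutamate TMM in neuroblast-biased brains and 65.2% in neuron-biased brains. TTC made up the remaining 40.2% in neuroblast-biased brains and 34.8% in neuron-biased brains. The ratio of CTC to TTC was 1.49 in neuroblast-biased brains and 1.87 in neuron-biased brains, a log2 change of −0.33. This ratio does not depend on how the groups are scaled. CTC genes were 68.4% of the glutamate genes, and their TMM per gene was 34619 in neuroblast-biased brains and 57310 in neuron-biased brains.

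The log2 change of the balance depended on Glu-CTC-1-1 in size and not in direction. Without this isodecoder the ratio of CTC to TTC was 1.12 in neuroblast-biased brains and 1.26 in neuron-biased brains, a log2 change of −0.17. With Glu-CTC-2-X left out the change was −0.54, and with Glu-CTC-3-X left out it was −0.32.

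A balance of this kind exists wherever 1 amino acid has a C-starting and a U-starting anticodon in the same codon box, which applied to 11 pairs. In 7 of these, the C-starting anticodon had a lower share in neuroblast-biased brains. The log2 change of glutamate was the fourth lowest of the 11, and its change in share was the third lowest in percentage points. The median size of the log2 change was 0.25. The lower log2 changes were those of Ser (CGA to TGA, −1.43), Leu (CAA to TAA, −0.87) and Gln (CTG to TTG, −0.51). The other pairs lay between −0.25 for Val (CAC to TAC) and 0.67 for Ala (CGC to TGC), with Lys (CTT to TTT) at −0.24, Thr (CGT to TGT) at −0.04, Leu (CAG to TAG) at 0.01, Arg (CCT to TCT) at 0.17 and Pro (CGG to TGG) at 0.24.

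**Figure D4:**
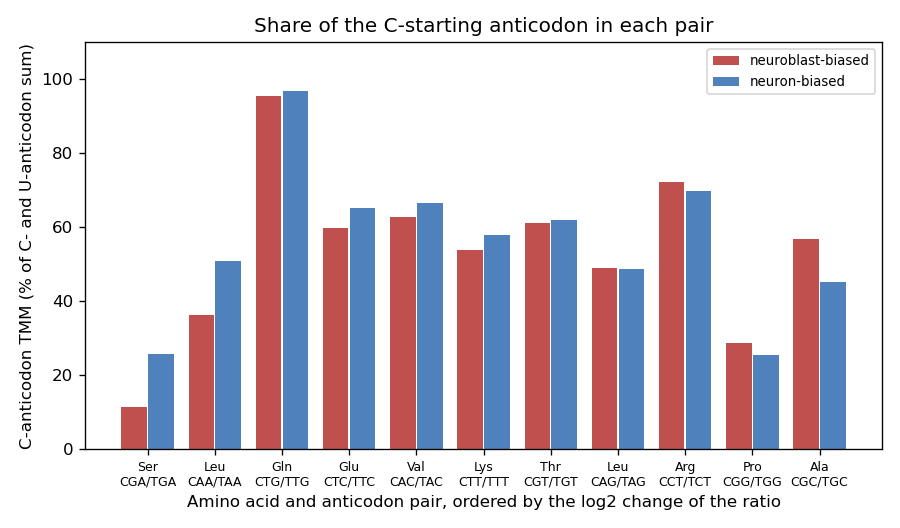
Share (%) of the C-starting anticodon in the summed TMM of each pair of C- and U-starting anticodons, in neuroblast-biased (left bars) and neuron-biased (right bars) brains, ordered by the log2 change of the ratio. Glu is at the fourth position, with 59.8% in neuroblast-biased and 65.2% in neuron-biased brains.

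The families set beside glutamate were aspartate, lysine and glutamine, and their sums as deposited were lower in neuroblast-biased brains. Aspartate, whose codons share the first 2 bases with those of glutamate, had a log2 ratio of −0.40 for the sum of its 3 isodecoders. The glutamate sum had −0.60, and Glu-TTC-1-X alone had −0.40. The single aspartate isodecoders ranged from −0.44 to −0.05. Lysine and glutamine, which like glutamate have a pair of codons ending in A or G, had −0.21 and −0.17. Both lay above the nuclear median of −0.27, so relative to it these sums were higher in neuroblast-biased brains. Lysine made up 9.29% of the nuclear TMM in neuroblast-biased brains and 8.74% in neuron-biased brains, and glutamine 3.12% and 2.86%. Aspartate made up 8.54% in neuroblast-biased brains and 9.15% in neuron-biased brains. Relative to the nuclear median, 4 of 4 glutamate isodecoders were lower, against 1 of 3 for aspartate, 1 of 3 for lysine and 2 of 6 for glutamine. The median places 50% of the nuclear isodecoders below it. None of these differences between families was tested.

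For the 5 proline isodecoders, whose synthetase is fused to that of glutamate, the log2 ratio of the sum was −1.001. By any amount, 5 of 5 were lower, and 5 of 5 were below the nuclear median. The shares of all nuclear isodecoders were 67.9% and 50%. Proline was added for the shared synthetase after its values were seen, and a link to glutamate was not tested. Likeness in log2 ratio was looked for among single nuclear isodecoders of other amino acids. Among these, iMet-CAT-2-1, Ala-TGC-1-1 and Ser-AGA-3-X were closest to the Glu-CTC sum, and differed from it by 0.003, 0.02 and 0.03. Each was far below that sum in level, and Ser-AGA-3-X was lowest, at 1086 TMM in neuroblast-biased brains and 1837 TMM in neuron-biased brains. Closest to Glu-TTC were Leu-TAA-2-1, Gln-CTG-3-1 and Arg-TCG-4-1, which differed from it by 0.029, 0.030 and 0.034. This likeness rests on 2 group means per tRNA.

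The tRNA adaptation index weights a codon by the TMM of the tRNAs that read it, with a penalty of 0.68 for the U:G pair, and divides by the larger weight of the amino acid. With isodecoders averaged within an anticodon, the way the study formed its anticodon groups, GAA had a weight of 1 in both groups. GAG had a weight of 0.816 in neuroblast-biased brains and 0.943 in neuron-biased brains. With isodecoders summed, GAG had a weight of 1 in both groups, and GAA had 0.553 in neuroblast-biased brains and 0.457 in neuron-biased brains. The ratio of GAG to GAA was thus lower in neuroblast-biased brains either way, while the codon with the higher weight depended on whether isodecoders were averaged or summed. Averaging divides the CTC sum by 3 and the TTC sum by 1. The same choice turned the ratio of the C-starting to the U-starting anticodon in neuron-biased brains to the other side of 1 in 3 of the 11 pairs, Glu, Ala and Val (CAC to TAC), of which Val came to 0.999 with averages. In neuroblast-biased brains it did so in 3 pairs as well, Glu, Val (CAC to TAC) and Leu (CAA to TAA).

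**Figure D5:**
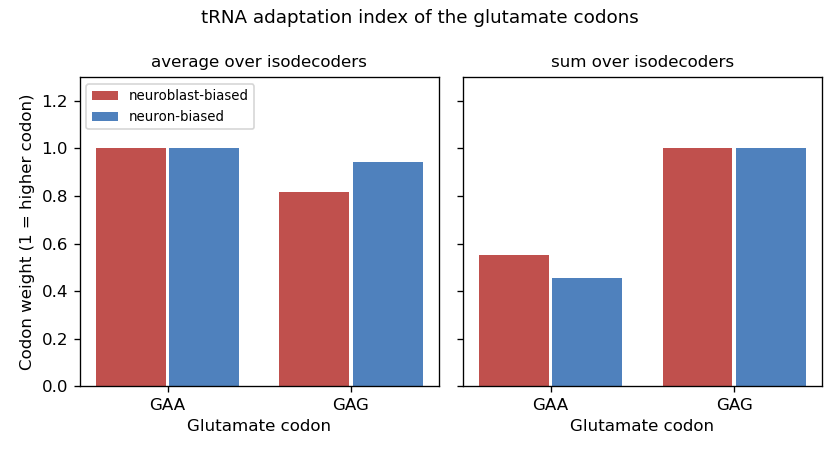
Weight of the glutamate codons GAA and GAG (1 = codon with the higher weight) in neuroblast-biased (left bars) and neuron-biased (right bars) brains, with isodecoders averaged (left panel) or summed (right panel) within an anticodon. GAA has the higher weight with averages, GAG with sums, and GAG is lower relative to GAA in neuroblast-biased brains in both panels.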

How the data were processed

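Total RNA of dissected larval brains was converted to hydro-tRNAseq libraries, in which tRNAs are partially hydrolysed before ligation. Per the methods, the authors trimmed reads with cutadapt, aligned them by subread-align against mature gtRNAdb tRNAs (identical sequences collapsed, CCA added), required a minimum mapping quality and ran featureCounts, splitting multi-mapped reads. NOISeqBio was used for TMM normalization and batch correction; the batches are not named. The deposited signal is the authors' mean TMM of each group. The 7 columns of the authors' own comparison (log2 fold change, theta, probability, q-value and calls) were not used.

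Log2 ratios, shares, balances and codon weights were calculated from the 2 means with Python 3.11.15, numpy 2.4.6 and pandas 2.3.3, without a pseudocount, and plotted with matplotlib 3.10.9. The calculations of the glutamate balance and codon weights were run on simulated data, which checks their arithmetic only. All 84 nuclear isodecoders were matched by name to RefSeq genes of Release 6 (290 genes). A log2 ratio of 0.5 in size was the limit for counts. Depth per sample is unknown, so no precision can be given. tRNA sequences were not analysed here. All glutamate isodecoders are named, with the 3 single isodecoders of other amino acids closest in log2 ratio to each anticodon group. Every amino acid with a C- and a U-starting anticodon is named too. Proline was added after its values were seen. Members and lists were chosen with earlier results of these data known.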

Additional observations from a re-analysis of the deposited data

How the results depend on the processing

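No paired analysis was possible because the table holds group means, and leaving out replicates was not run for the same reason. As the group means hold no replicate spread, a value was taken as moved when it changed by over 1.5 times. Of the 69 alternative values, 37 did not. Of the rest, 9 turned to the other side of 1, all of them CTC to TTC or GAG to GAA ratios. The log2 ratios of the glutamate isodecoders kept their direction in every setting. So did the log2 changes of the CTC to TTC ratio and of the GAG to GAA weight. The lysine and glutamine sums did not, as both were higher in neuroblast-biased brains relative to the nuclear median. With the nuclear median set to 0, the log2 ratio was −0.19 for Glu-CTC-2-X, −0.48 for Glu-CTC-3-X and −0.13 for Glu-TTC-1-X. With equal summed TMM over all tRNAs it was −0.20, −0.48 and −0.13, and over nuclear isodecoders −0.16, −0.45 and −0.10. A fold of 2 left 1 glutamate isodecoder lower, with 8 nuclear isodecoders lower and 2 higher. With the nuclear median set to 0 and the log2 limit kept at 0.5, the corresponding counts were 1, 12 and 17. On that scale, Glu-TTC-1-X contributed 14.6% of the glutamate difference. This share, the counts at the nuclear median and the glutamate counts at other folds were added after the data were seen.

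The CTC to TTC ratio with isodecoders averaged was 0.496 in neuroblast-biased and 0.623 in neuron-biased brains, below 1, since the average divides CTC by 3. Per gene, also added later, it was 0.687 in neuroblast-biased and 0.863 in neuron-biased brains. Without Glu-CTC-2-X it was 0.767 in neuroblast-biased and 1.12 in neuron-biased brains, with a log2 change of −0.54, and without Glu-CTC-1-1 the change was −0.17. The GAG to GAA weight was 1.496 in neuroblast-biased and 1.62 in neuron-biased brains with a U:G penalty of 0 (log2 change −0.12), 0.496 in neuroblast-biased and 0.623 in neuron-biased brains with a penalty of 1 (−0.33), and 1.81 in neuroblast-biased and 2.19 in neuron-biased brains with isodecoders summed. The unknown depth limits every value.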
